A study of Mus musculus with 20 samples.

Results

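RNA of 10 genes of insulin, PI3K and FOXO signalling was counted in the left ventricle of mice. RNA counts show neither protein amount nor activity of the pathway. Each gene was read from the lines of the count tables that carry its symbol. The list held the receptor genes Insr and Igf1r, the adaptor genes Irs1 and Irs2, and the PI3-kinase subunit genes Pik3ca and Pik3r1. It also held the kinase genes Akt1 and Akt2 and the transcription factor genes Foxo1 and Foxo3. These are 10 of the 24059 genes in the tables. The list was chosen in part on a measured value, the time difference of Pik3r1 and Foxo3, which depended on genotype. For that difference, and for the differences at 1 time or in 1 genotype from which it is made, these 2 genes are therefore described without a test. All 10 genes passed the filter on low counts.

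Left ventricular free wall of male C57BL/6 mice of approximately 9 to 13 weeks gave the RNA, taken at lights on (ZT0) or at lights off (ZT12). CardioGRKO mice had the genotype GRfl/fl alphaMHCCre/+, in which a Cre under the cardiomyocyte promoter alphaMHC (alpha myosin heavy chain) removes floxed sequence of the glucocorticoid receptor gene Nr3c1. GRflox mice (GRfl/fl, no Cre) were their littermate controls, so both genotypes carried the floxed alleles. Effects of Cre itself and of receptor loss cannot be told apart. Each of the 4 groups had 5 libraries, and nothing in the labels says more of what separates them than a replicate number, so p-values measure the spread between these libraries.

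Insulin and insulin-like growth factors bind receptor tyrosine kinases, which phosphorylate the adaptor proteins IRS1 and IRS2. The adaptors recruit PI3-kinase, a dimer of a catalytic subunit such as p110alpha (from Pik3ca) and a regulatory subunit such as p85alpha (from Pik3r1), whose lipid product activates AKT. AKT drives glucose uptake, glycogen storage and protein synthesis in heart muscle and keeps FOXO transcription factors out of the nucleus, where they otherwise switch on genes of autophagy, protein breakdown and stress defence.

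Promoter sequence is shown for Pik3r1 and Foxo3, the pair chosen for its time difference, and for Irs1 and Irs2, which share a motif. All windows are the 250 bases before an annotated start, from RefSeq on GRCm38.p6, written 5′ to 3′ on the gene's strand. RefSeq windows were matched for 9 of the 10 genes (14 windows). Pik3r1 has 2 annotated starts, at chr13:101768218-101768467 (minus strand) and chr13:101692631-101692880 (minus strand), and the Foxo3 window is chr10:42276696-42276945 (minus strand).
Pik3r1, first start: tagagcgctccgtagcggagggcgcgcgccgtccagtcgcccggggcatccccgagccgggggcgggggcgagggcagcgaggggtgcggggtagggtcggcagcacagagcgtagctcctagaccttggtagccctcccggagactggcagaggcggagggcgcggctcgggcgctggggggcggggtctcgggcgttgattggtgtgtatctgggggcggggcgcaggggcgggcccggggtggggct
Pik3r1, second start: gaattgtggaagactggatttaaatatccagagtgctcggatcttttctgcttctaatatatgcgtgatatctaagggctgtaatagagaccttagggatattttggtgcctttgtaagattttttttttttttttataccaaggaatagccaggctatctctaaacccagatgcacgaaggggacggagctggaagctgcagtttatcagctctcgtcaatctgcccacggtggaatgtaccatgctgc
Foxo3: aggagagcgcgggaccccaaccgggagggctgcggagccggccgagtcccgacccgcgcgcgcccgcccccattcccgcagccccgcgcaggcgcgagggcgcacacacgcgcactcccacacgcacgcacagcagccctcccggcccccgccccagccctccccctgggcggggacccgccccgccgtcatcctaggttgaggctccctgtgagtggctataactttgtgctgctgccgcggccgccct
The first Pik3r1 window and the Foxo3 window each had 76.4% G and C, and the second Pik3r1 window had 42.4%. None of these 3 windows held any of the 5 motifs searched on both strands, so they have no capitals. These were the glucocorticoid response element (AGAACA and TGTTCT with any 3 bases between them), its half-site AGAACA, the FOXO motif TGTTTAC, the E-box CACGTG and the insulin response motif CAAAACA, and the half-site lies within the first of them by construction. Of all 32851 RefSeq windows, 0.00913% held the full element, 16.1% the half-site, 3.17% the FOXO motif, 6.02% the E-box and 5.56% the insulin response motif. Among the 14 windows of these genes, the FOXO motif occurred in 1, upstream of Akt1, and neither glucocorticoid receptor motif occurred in any. The E-box, a motif bound among others by the clock factors CLOCK and BMAL1, occurred upstream of Irs1 (first base at position -115 from the start) and Irs2 (position -44). In both adaptor genes it lay beside the insulin response motif in its reverse form TGTTTTG, as the 36 bases around it show, with both motifs in capitals.
Irs1, chr1:82291531-82291566 (minus strand): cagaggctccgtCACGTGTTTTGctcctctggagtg
Irs2, chr8:11008950-11008985 (minus strand): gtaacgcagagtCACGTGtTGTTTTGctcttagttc
In Irs1 the last bases of the E-box are also the first of TGTTTTG, whereas in Irs2 the motifs are separated by 1 base. A match of letters describes the window and shows no binding.

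On GRCm38 the receptor genes lie at chr8:3150922-3279649 (Insr) and chr7:67952257-68233668 (Igf1r), and the adaptor genes at chr1:82233105-82291439 (Irs1) and chr8:10984681-11008929 (Irs2). The PI3-kinase genes lie at chr3:32397065-32466112 (Pik3ca) and chr13:101680761-101768217 (Pik3r1), the kinase genes at chr12:112653821-112674884 (Akt1) and chr7:27591552-27640826 (Akt2), and the FOXO genes at chr3:52268337-52350109 (Foxo1) and chr10:42181845-42276695 (Foxo3). The sources used here do not give whether counting used strand. Reads of Pik3ca, Igf1r, Irs2, Akt1 and Foxo3 may therefore be shared with annotated genes that overlap them, such as Kcnmb3 at Pik3ca; no gene of the RefSeq table overlaps the other 5.

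Depth ran from 5854462 to 37648421 counted reads per library (median 23223656). The library of least depth, CardioGRKO at ZT0 replicate 1, lay apart from its group on the first principal component. The header of its counts carries the number 0475, and that of the other 19 carries 0476. What this number marks is not given. Nr3c1 had 95.3 to 122 CPM (counts scaled to library size) in the 10 GRflox libraries and 46.7 to 61.1 CPM in the 10 CardioGRKO libraries, so every library fitted its genotype label. Among the cell types listed by markers, summed cardiomyocyte markers ran from 89647 to 111536 CPM over all libraries, and adipocyte markers never exceeded 3.52 CPM.

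CPM per kilobase of exon makes levels roughly comparable between genes. The length used is the union of annotated exons, which need not match the transcripts expressed. Order and ratios between genes are therefore approximate. On this scale Akt1 was highest with a mean of 63.1 over the 20 libraries, followed by Akt2 at 30.6. Pik3r1 came next with a mean of 20.5, but its libraries ran from 10.9 to 48.8, a range that contains the 17.4 of Insr. Foxo3 at 8.87, Pik3ca at 7.70 and Irs1 at 7.31 followed, and the library ranges of these neighbours overlapped. Foxo1 at 5.28, Irs2 at 3.35 and Igf1r at 2.40 were lowest. Akt1 stood above Akt2 in every library on this scale. This order is of means over all groups: in GRflox at ZT12 Pik3r1, at 39.3 ± 6.44 (SD, n = 5), lay above Akt2 at 32.3 ± 1.58, and the lowest Irs2 library, at 1.46, lay below the lowest of Igf1r, at 2.22.

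Both receptor genes differed little between groups. Insr, which encodes the insulin receptor, ranged from 223 to 254 CPM over all 20 libraries. Its averaged genotype difference, CardioGRKO minus GRflox over both times, was -0.03 on the log2 scale (95% interval -0.09 to 0.03, adjusted p = 0.471, quasi-likelihood F-test of edgeR, Benjamini-Hochberg adjusted, as throughout), and its averaged time difference, ZT12 minus ZT0 over both genotypes, was -0.01 (-0.08 to 0.05, adjusted p = 0.772). All 4 groups overlapped. Igf1r, the receptor gene for insulin-like growth factors, ranged from 37.2 to 47.9 CPM. It was higher at ZT12 by 0.11 ± 0.04 (log2, SE), a 1.08-fold difference with an adjusted p of 0.0486. That call was lost when any 1 of 15 of the 20 libraries was left out, with adjusted p from 0.0228 to 0.132 over all 20 omissions; it held without replicate 5 of GRflox at ZT0, replicate 5 of CardioGRKO at ZT0, replicate 1 of GRflox at ZT12, or replicate 2 or 4 of CardioGRKO at ZT12. By genotype Igf1r differed by -0.01 (95% interval -0.10 to 0.07, adjusted p = 0.859). The ratio of Insr to Igf1r per kilobase within a library was 7.62 ± 0.174 (SD, n = 5) in GRflox at ZT0, 7.55 ± 0.246 in CardioGRKO at ZT0, 7.01 ± 0.272 in GRflox at ZT12 and 6.93 ± 0.629 in CardioGRKO at ZT12.

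Irs1 fell from ZT0 to ZT12 in both genotypes. In GRflox it had 76.6, 71.5, 87.3, 93.4 and 78.4 CPM in replicates 1 to 5 at ZT0 (81.5 ± 8.81, SD) and 50.1, 53.6, 66.5, 50.9 and 39.0 CPM at ZT12 (52.0 ± 9.82). In CardioGRKO it had 69.5, 65.9, 75.6, 92.7 and 85.8 CPM at ZT0 (77.9 ± 11.2) and 59.7, 51.3, 58.9, 62.3 and 47.6 CPM at ZT12 (55.9 ± 6.21). Within each genotype every ZT12 library lay below every ZT0 library. The difference was -0.64 ± 0.11 in GRflox (1.55-fold, adjusted p = 2.41e-04) and -0.48 ± 0.11 in CardioGRKO (1.39-fold, adjusted p = 0.00714), and the difference between these was 0.16 ± 0.16, given without a test. Averaged over genotypes, Irs1 was 1.47-fold lower at ZT12 (-0.56 ± 0.08, adjusted p = 1.08e-05). Genotype left no called difference in Irs1, with an averaged value of 0.02 (95% interval -0.14 to 0.18, adjusted p = 0.876).

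Irs2, the other adaptor gene, varied mainly between libraries of the same group. Its values were 10.4, 14.0, 20.6, 21.8 and 19.7 CPM in GRflox at ZT0 and 9.22, 50.5, 22.7, 14.9 and 27.8 CPM in CardioGRKO at ZT0. At ZT12 they were 11.1, 19.1, 19.0, 18.1 and 54.6 CPM in GRflox and 18.04, 10.8, 10.6, 22.7 and 27.6 CPM in CardioGRKO. The groups overlapped throughout, while single libraries spanned 5.92-fold. Its SD within groups was 0.73 on the log2 scale, against a median of 0.12 over the 2300 genes within 0.5 log2 units of its mean level, of which 99.9% had a smaller SD. No contrast of Irs2 passed the test: the averaged genotype difference was 0.09 (95% interval -0.47 to 0.65, adjusted p = 0.839) and the averaged time difference -0.05 (-0.61 to 0.51, adjusted p = 0.925). The intervals leave room for differences as large as those of Irs1. The within-library ratio of Irs1 to Irs2 per kilobase was 3.45 ± 0.963 (SD, n = 5) in GRflox at ZT0 and 1.98 ± 0.961 at ZT12. In CardioGRKO it was 2.97 ± 1.75 at ZT0 and 2.498 ± 1.06 at ZT12.

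**Figure D1:**
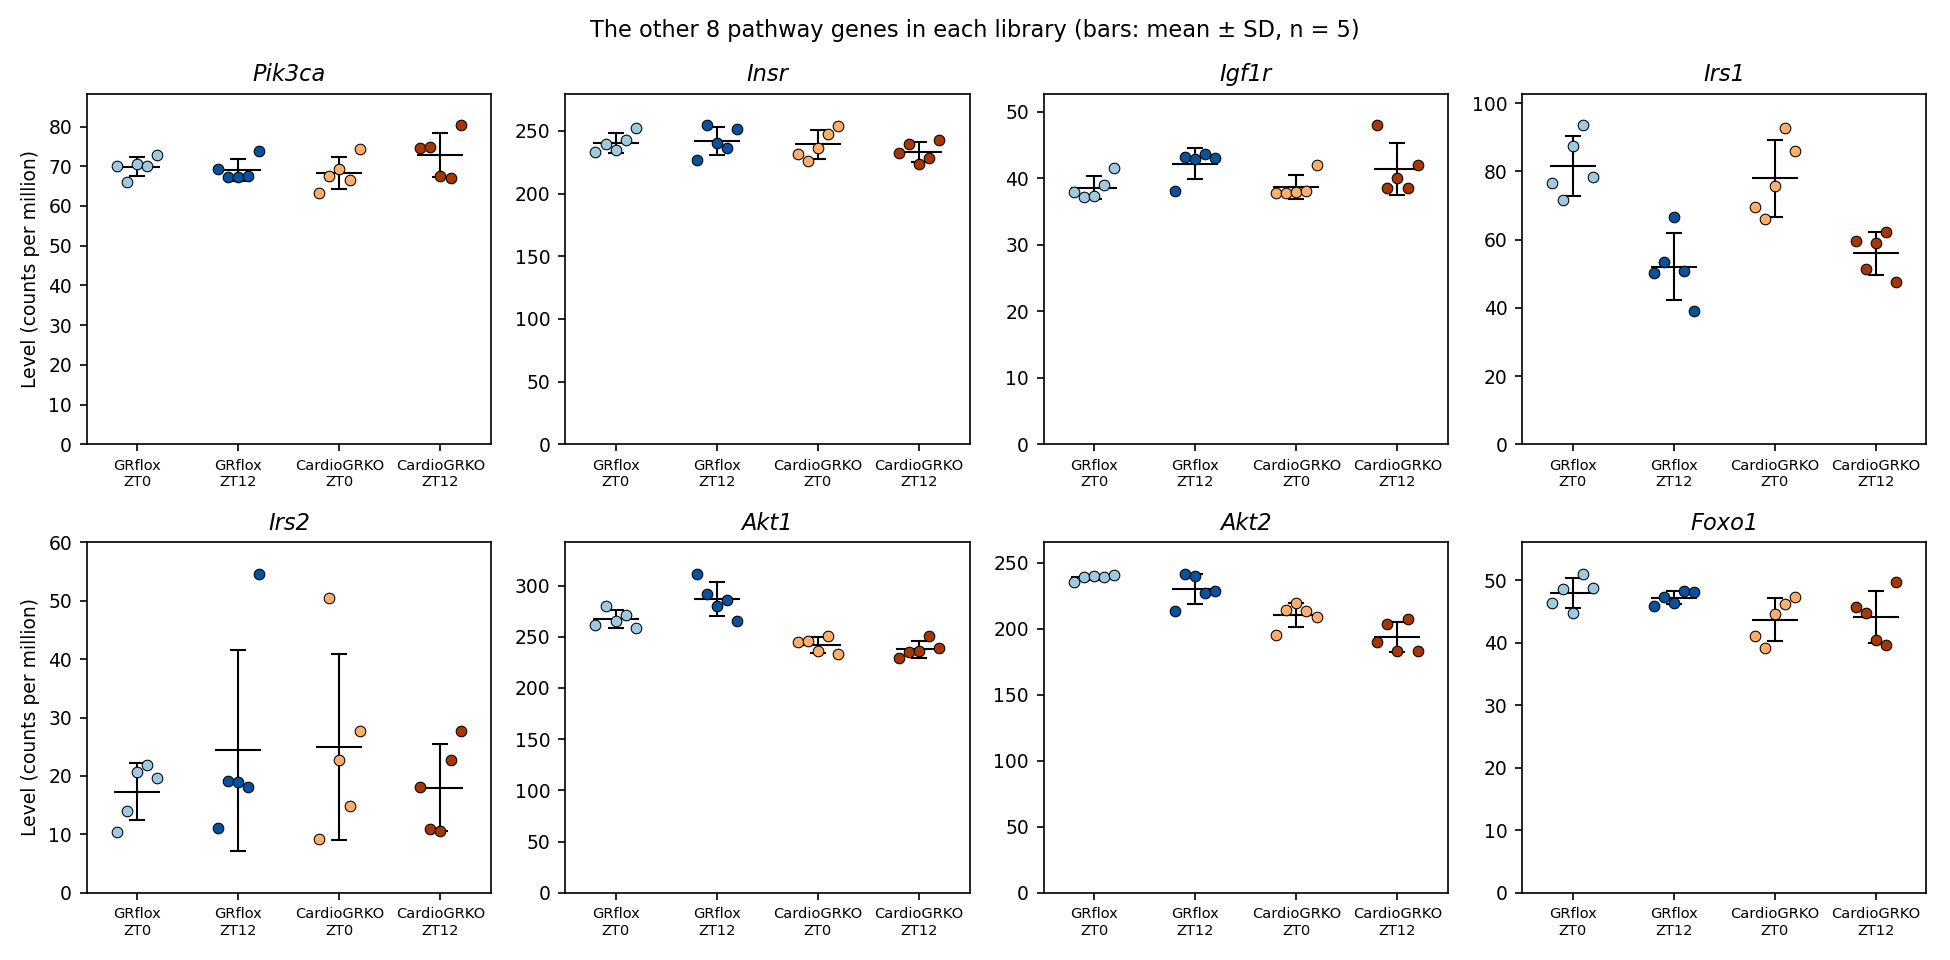
Level of the 8 genes other than Pik3r1 and Foxo3 in each library (vertical axis, CPM with TMM scaling, from 0) for the 4 groups of genotype and time; points are libraries and bars the mean ± SD of 5. Irs1 was lower at ZT12 in both genotypes, Akt1 and Akt2 were lower in CardioGRKO at both times, and Irs2 had single libraries at 50.5 and 54.6 CPM.

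Pik3ca, the gene of the catalytic subunit p110alpha, stayed between 63.4 and 80.3 CPM in all 20 libraries. Its averaged genotype difference was 0.02 (95% interval -0.05 to 0.10, adjusted p = 0.706) and its averaged time difference 0.04 (-0.04 to 0.11, adjusted p = 0.508). Its groups overlapped in every comparison. Pik3r1, the gene of the regulatory subunit p85alpha, behaved differently. At ZT0 it had 196, 188, 193, 177 and 170 CPM in GRflox (185 ± 10.7, SD) and 110, 112, 127, 111 and 119 CPM in CardioGRKO (116 ± 7.33). At ZT12 it had 400, 309, 492, 391 and 389 CPM in GRflox (396 ± 64.9) and 118, 143, 131, 116 and 141 CPM in CardioGRKO (129 ± 12.7). The GRflox libraries lay above the CardioGRKO libraries at both times without overlap, GRflox at ZT12 lay above GRflox at ZT0, and the CardioGRKO libraries of both times overlapped.

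Pik3r1 was thus 2.15-fold higher at ZT12 than at ZT0 in GRflox (log2 1.10 ± 0.09) and 1.12-fold higher in CardioGRKO (0.16 ± 0.09). The genotype difference was 1.59-fold at ZT0 (-0.67 ± 0.09) and 3.06-fold at ZT12 (-1.62 ± 0.09). The difference of the time effects, by which Pik3r1 was chosen, was -0.94 ± 0.12 and is a description only. Of all genes, 0.186% were called for that difference, and nothing is read from it for Pik3r1. The averages over times or genotypes are separate comparisons in this balanced design and were tested. They come from the same libraries as the choice, including the high GRflox group at ZT12. Their p-values are therefore not read as support independent of the choice. Pik3r1 was 2.21-fold lower in CardioGRKO (-1.14 ± 0.06, adjusted p = 1.44e-12, all 10 libraries below all 10 of GRflox) and 1.55-fold higher at ZT12 (0.63 ± 0.06, adjusted p = 3.31e-08). The within-library ratio of Pik3r1 to Pik3ca per kilobase, of these subunit genes only, was 2.39 ± 0.189 (SD, n = 5) in GRflox at ZT0 and 5.18 ± 0.905 at ZT12. In CardioGRKO it was 1.53 ± 0.0831 at ZT0 and 1.61 ± 0.131 at ZT12. Other regulatory and catalytic subunit genes are not in this ratio, so it is not the subunit balance of PI3-kinase. It follows the group pattern by which Pik3r1 was chosen. In bulk tissue, fewer cells of a type and less RNA per cell cannot be told apart, for this gene or any other here.

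Both AKT genes were lower in CardioGRKO at both times. Akt1 had 262, 280, 266, 271 and 259 CPM in GRflox at ZT0 (267 ± 8.55, SD) and 245, 245, 236, 251 and 233 CPM in CardioGRKO (242 ± 7.53). At ZT12 it had 311, 292, 280, 286 and 265 CPM in GRflox (287 ± 16.8) and 229, 235, 236, 251 and 239 CPM in CardioGRKO (238 ± 8.15). All 10 CardioGRKO libraries lay below all 10 GRflox libraries. The averaged difference was 1.15-fold (-0.21 ± 0.03, adjusted p = 7.15e-06). At ZT0 it was -0.14 ± 0.04 (adjusted p = 0.0204), at ZT12 -0.27 ± 0.04 (adjusted p = 3.55e-05). These differed by -0.13 ± 0.06, which is given without a test. The call at ZT0 was lost without replicate 2 of GRflox at ZT0 (adjusted p = 0.0648) or without replicate 3 (0.0620) or 5 (0.0612) of CardioGRKO at ZT0. Between times Akt1 did not pass the test, at 0.04 ± 0.03 averaged over genotypes (adjusted p = 0.37). In GRflox it was 0.10 ± 0.04 (adjusted p = 0.0975, or 0.0396 without replicate 5 of GRflox at ZT12).

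Akt2, the AKT gene most closely linked to insulin-driven glucose uptake, had 236, 239, 240, 239 and 241 CPM in GRflox at ZT0 (239 ± 1.99, SD) and 195, 214, 220, 214 and 209 CPM in CardioGRKO (210 ± 9.25). At ZT12 it had 213, 241, 239, 227 and 229 CPM in GRflox (230 ± 11.3) and 190, 203, 183, 207 and 183 CPM in CardioGRKO (193 ± 11.3). The genotypes did not overlap within either time. The difference was -0.18 ± 0.04 at ZT0 (1.13-fold, adjusted p = 0.00608) and -0.25 ± 0.04 at ZT12 (1.19-fold, adjusted p = 1.69e-04), and 1.16-fold on average (-0.22 ± 0.03, adjusted p = 8.46e-06). Akt2 was also 1.06-fold lower at ZT12 on average (-0.09 ± 0.03, adjusted p = 0.037), a call lost in 9 of 20 omissions of 1 library, with adjusted p from 0.0114 to 0.0749. Those were replicates 2 to 5 of GRflox at ZT0, replicate 3 of CardioGRKO at ZT0, replicates 1, 4 and 5 of GRflox at ZT12 and replicate 5 of CardioGRKO at ZT12. In CardioGRKO alone its time difference was -0.12 ± 0.04 (adjusted p = 0.0824), and it passed without replicate 1 of CardioGRKO at ZT0 (0.0322) or without replicate 2 (0.0468) or 4 (0.0285) of CardioGRKO at ZT12. The ratio of Akt1 to Akt2 per kilobase was 1.95 ± 0.0640, 2.01 ± 0.121, 2.18 ± 0.213 and 2.14 ± 0.108 (SD, n = 5) in GRflox and CardioGRKO at ZT0 and in GRflox and CardioGRKO at ZT12.

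Foxo3, which encodes a FOXO factor, was highest in GRflox at ZT12, as Pik3r1 was, but its other groups were ordered differently, with CardioGRKO at ZT12 above GRflox at ZT0 in the mean. At ZT0 it had 59.3, 59.4, 53.2, 53.8 and 53.5 CPM in GRflox (55.8 ± 3.22, SD) and 44.3, 50.7, 50.7, 55.4 and 49.8 CPM in CardioGRKO (50.2 ± 3.96). At ZT12 it had 96.3, 96.1, 124, 93.4 and 110 CPM in GRflox (104 ± 13.1) and 62.3, 56.2, 55.9, 61.7 and 56.8 CPM in CardioGRKO (58.6 ± 3.15). The genotypes overlapped at ZT0 and were separate at ZT12, where the lowest GRflox library had 93.4 CPM and the highest CardioGRKO library 62.3 CPM. Foxo3 was 1.87-fold higher at ZT12 in GRflox (0.90 ± 0.07) and 1.16-fold higher in CardioGRKO (0.21 ± 0.07), and in both genotypes the times did not overlap. The genotype difference was 1.10-fold at ZT0 (-0.14 ± 0.07) and 1.78-fold at ZT12 (-0.83 ± 0.07). The difference of the time effects was -0.69 ± 0.10, again a description, since it chose the gene. The tested averages, with the limit given for Pik3r1, were 1.40-fold lower in CardioGRKO (-0.48 ± 0.05, adjusted p = 5.86e-08) and 1.47-fold higher at ZT12 (0.56 ± 0.05, adjusted p = 1.01e-08).

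Foxo1, the other FOXO gene listed, had 44.7 to 51.0 CPM in the 10 GRflox libraries and 39.1 to 49.8 CPM in the 10 CardioGRKO libraries, so the genotypes overlapped. It was 1.08-fold lower in CardioGRKO on average (-0.12 ± 0.04, adjusted p = 0.0429). That call was lost in 13 of 20 omissions of 1 library, with adjusted p from 0.0132 to 0.102, and held without replicate 1 or 3 of GRflox at ZT0, replicate 4 or 5 of CardioGRKO at ZT0, replicate 1 of GRflox at ZT12, or replicate 1 or 5 of CardioGRKO at ZT12. Its averaged time difference was -0.01 ± 0.04 (adjusted p = 0.941). The within-library ratio of Foxo3 to Foxo1 per kilobase was 1.34 ± 0.105 (SD, n = 5) in GRflox at ZT0, 1.32 ± 0.113 in CardioGRKO at ZT0, 2.52 ± 0.337 in GRflox at ZT12 and 1.53 ± 0.179 in CardioGRKO at ZT12. In every GRflox library at ZT12 this ratio was at least 2.21, and in the other 3 groups it was at most 1.78. Foxo1 differed little between groups, so this separation restates the group pattern by which Foxo3 was chosen.

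**Figure D2:**
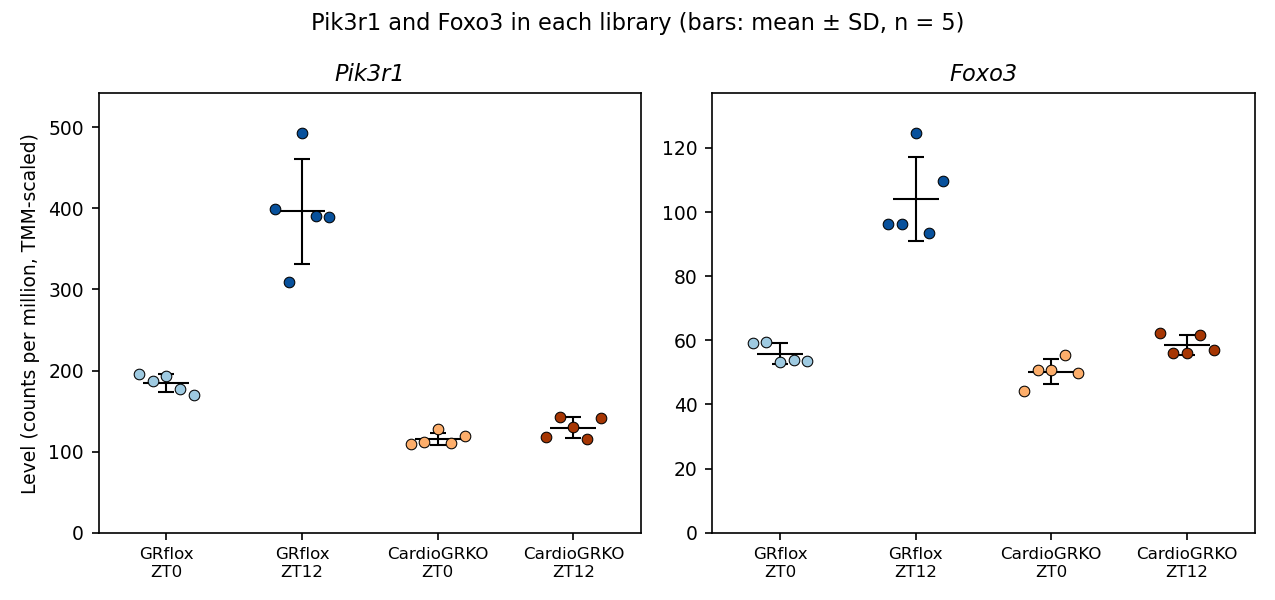
Level of Pik3r1 and Foxo3 in each library (vertical axes, CPM with TMM scaling, from 0) for the 4 groups; points are libraries and bars the mean ± SD of 5. Pik3r1 reached 309 to 492 CPM and Foxo3 93.4 to 124 CPM in GRflox at ZT12, above every library of the other 3 groups. This restates the pattern by which both genes were chosen.

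Counted over all 10 genes, the genotype difference averaged over times was called lower for 5 (Pik3r1, Akt1, Akt2, Foxo1 and Foxo3) and higher for none. Over all 14007 genes tested, 31.4% were called, 15.5% higher and 15.9% lower. The median of the 10 genes was -0.07 and that of all genes -0.00. With that least deep library left out, the averages were -1.13 for Pik3r1, -0.21 for Akt1, -0.20 for Akt2 and -0.47 for Foxo3, and Foxo1 no longer passed at -0.11 (adjusted p = 0.0726). Pik3r1 and Akt1 kept all libraries of one genotype apart from all of the other, as 4.18% of all genes did. The averaged time difference was called higher at ZT12 for 3 genes (Pik3r1, Foxo3 and Igf1r) and lower for 2 (Irs1 and Akt2), against 25.7% of all genes, 12.8% higher and 12.9% lower. The median there was 0.02 for the 10 genes and 0.00 for all. Pik3r1 and Foxo3, chosen on these data, stand in both counts, so nothing is read from either count about the genes as a group.

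For single times and genotypes, 8 genes were tested, leaving out Pik3r1 and Foxo3. At ZT0 and at ZT12, 2 of 8 were called lower in CardioGRKO (Akt1 and Akt2) and none higher. All genes gave 14.7% at ZT0 (7.36% higher, 7.35% lower) and 21.1% at ZT12 (10.4% higher, 10.7% lower). Both Akt genes also kept the genotypes apart without overlap at each time, as 11.9% of all genes did at ZT0 and 13.8% at ZT12. Of the same 8, Irs1 alone was called between times in GRflox, where 17.3% of all genes were called (8.13% higher, 9.17% lower), and in CardioGRKO, where 9.17% were (4.42% higher, 4.75% lower). Irs1 also kept the times apart without overlap, as 12.5% of all genes did in GRflox and 7.11% in CardioGRKO. With 8 genes, counts of 1 or 2 lie near these backgrounds, and nothing is read from them about the genes as a group.

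**Figure D3:**
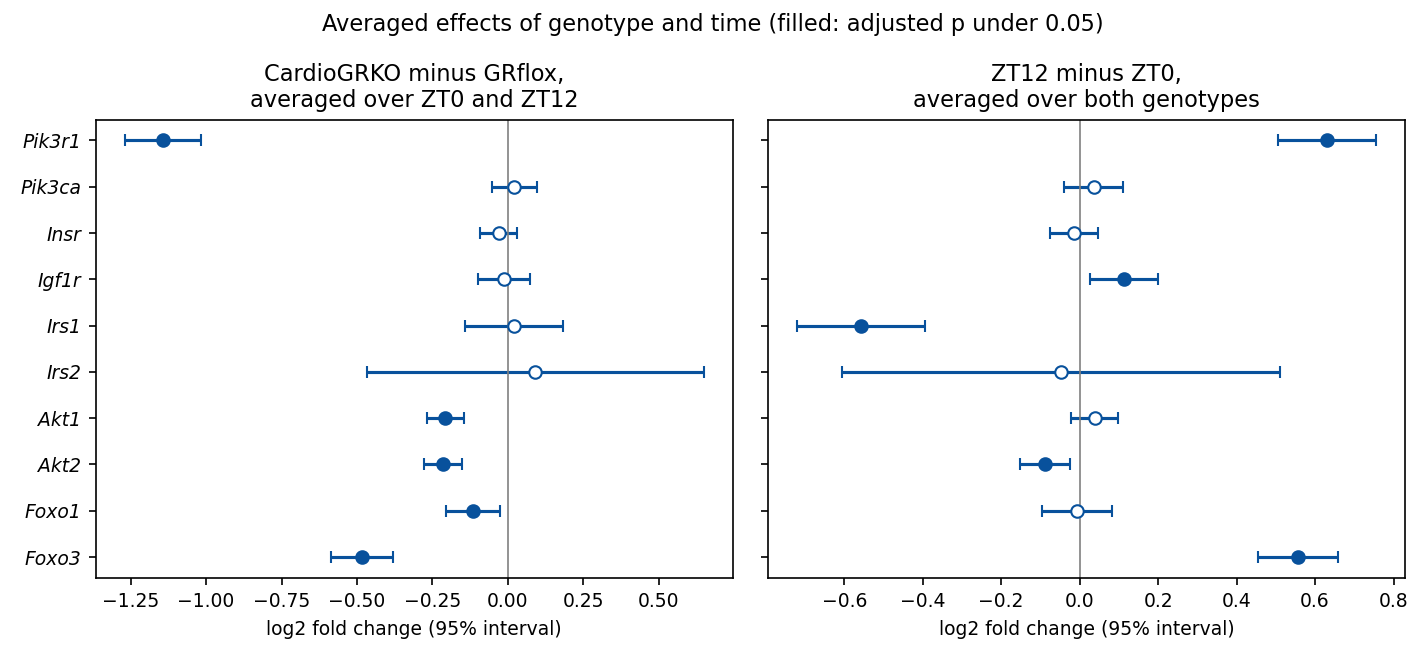
Log2 fold change of the 10 genes with 95% interval for CardioGRKO minus GRflox averaged over both times (left) and ZT12 minus ZT0 averaged over both genotypes (right); filled points had an adjusted p under 0.05 (edgeR). Pik3r1 at -1.14 and Foxo3 at -0.48 lay farthest from 0 by genotype, and Irs1 at -0.56 was the member farthest below 0 by time.

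Across the 20 libraries, the log2 CPM of Pik3r1 and Foxo3 correlated with r = 0.91, and with r = 0.36 once each group's mean was removed, as a description over libraries that share the 4 groups. The first value restates the choice of both genes by the same group pattern. Pik3r1 and Akt1 had r = 0.83 over all libraries and -0.22 within groups. Insr and Foxo1, in contrast, kept r = 0.73 within groups (0.70 over all). Of the 11357 genes ranked for likeness to Pik3r1 over the 20 libraries, Raph1 (r = 0.97), Acot11 (0.97), Chd6 (0.96), Prodh (0.96), Fam151a (0.96) and Tfdp2 (0.96) came first, and within groups their r ran from 0.36 for Prodh to 0.74 for Chd6. For Foxo3 they were Herpud1 (r = 0.96), Fry (0.94), Zbtb16 (0.94), Mbd1 (0.93), Smg1 (0.93) and Adora1 (0.93), with 0.37 to 0.49 within groups. Zbtb16, which encodes a zinc finger repressor, stood at 50.2 CPM in GRflox at ZT0, 301 in GRflox at ZT12, 42.3 in CardioGRKO at ZT0 and 94.6 in CardioGRKO at ZT12. It thus had the same order of groups as Foxo3 with a wider range.

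A wider list of 124 genes around the pathway was read in the same fits, and 120 passed the filter. It was chosen with earlier results of these data known, so nothing is read from the counts below about any list as a group. By genotype 8 were called higher and 32 lower in CardioGRKO (33.3% called, median -0.04), and by time 31 were higher and 10 lower at ZT12 (34.2% called, median 0.02), beside the shares over all genes given above. For single times and genotypes, 9 were higher and 10 lower in CardioGRKO at ZT0 and 7 and 23 at ZT12, while 21 were higher and 7 lower at ZT12 in GRflox and 8 and 3 in CardioGRKO. The shares called in these 4 comparisons were 15.8%, 25.0%, 23.3% and 9.17%, beside 14.7%, 21.1%, 17.3% and 9.17% of all genes. Every averaged count of a single list below stands beside the same shares of all genes. These were 15.5% higher and 15.9% lower by genotype, and 12.8% higher and 12.9% lower by time.

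Among ligands and binding proteins, 8 genes were tested, and 1 was higher and 1 lower by genotype. Igfbp5, an IGF binding protein, was higher in CardioGRKO (0.61 ± 0.05, adjusted p = 1.38e-09), going from 262 (GRflox) to 395 CPM (CardioGRKO) at ZT0 and from 243 to 378 CPM at ZT12. Igf2, the growth factor, was lower (-0.30 ± 0.08, adjusted p = 0.00486). Among 15 receptor regulators, 1 was higher and 3 lower by genotype, including the receptor phosphatase gene Ptprf (-0.44 ± 0.09, adjusted p = 4.70e-04) and the adaptor gene Grb2, which was the higher one (0.17 ± 0.03, adjusted p = 4.47e-04). The binding protein genes Igfbp7 (0.22 ± 0.05, adjusted p = 0.00145) and Igfbp3 (-0.31 ± 0.09, adjusted p = 0.0132) changed with time in opposite directions.

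Of 12 other PI3-kinase genes, 4 were higher at ZT12 and none lower, beside 12.8% and 12.9% of all genes, and 8 did not pass. By genotype 1 was lower, Pik3cb, the gene of another catalytic subunit (-0.17, adjusted p = 0.00569); with all libraries thinned to the shallowest it stood at 0.02 (adjusted p = 0.884). Pik3ip1, which encodes an inhibitor of the p110 subunits, rose in GRflox from 36.9 ± 3.68 CPM at ZT0 to 69.9 ± 4.23 at ZT12 (SD, n = 5) and in CardioGRKO from 45.8 ± 6.35 to 70.0 ± 9.04 CPM. Its averaged time difference was 0.77 ± 0.06 (adjusted p = 1.57e-09), with 0.92 ± 0.09 in GRflox (adjusted p = 4.48e-08) and 0.62 ± 0.09 in CardioGRKO (adjusted p = 3.89e-05). Of 10 phosphatase genes, 2 were higher and 1 lower at ZT12. Inpp4b, a phosphoinositide phosphatase gene, was lower both by genotype (-0.32 ± 0.06, adjusted p = 2.29e-04) and by time (-0.31 ± 0.06, adjusted p = 4.86e-04). Of 11 AKT partners and related kinases, 1 was called by genotype (Prr5, -0.28 ± 0.09, adjusted p = 0.0164) and 3 by time, 2 of them higher.

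Downstream of AKT, 6 of 10 glucose uptake and glycogen genes were lower in CardioGRKO and none higher (median -0.12), beside 15.9% lower and 15.5% higher of all genes. Gys1, glycogen synthase of muscle, was lowest at -0.39 ± 0.05 (adjusted p = 7.56e-07), from 302 (GRflox) to 235 CPM (CardioGRKO) at ZT0 and from 306 to 229 CPM at ZT12. Slc2a4, the insulin-responsive glucose transporter GLUT4, was lower at -0.18 ± 0.03 (adjusted p = 6.25e-05). Slc2a1, the transporter GLUT1, was higher at ZT12 (0.56 ± 0.07, adjusted p = 1.05e-06). In the mTORC1 branch, 2 of 18 genes were higher and 6 lower by genotype. By time 5 were higher and 2 lower, beside 12.8% and 12.9% of all genes. The mTORC1 inhibitor gene Ddit4 was lower (-0.78 ± 0.16, adjusted p = 6.09e-04), while the mTOR-binding inhibitor gene Deptor (0.34 ± 0.06, adjusted p = 8.29e-05) and Sesn2 (0.40 ± 0.07, adjusted p = 1.80e-04) were higher in CardioGRKO. Eif4ebp1, a translation repressor gene, was higher at ZT12 (0.37 ± 0.06, adjusted p = 3.33e-05), and its relative Eif4ebp2 lower (-0.22 ± 0.03, adjusted p = 2.70e-05).

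Of 13 other FOXO factors and regulators, 1 was higher and 2 lower by genotype; Foxo4 was among the lower (-0.12 ± 0.03, adjusted p = 0.00344). Of 23 genes described elsewhere as FOXO targets, 3 were higher and 9 lower in CardioGRKO (median -0.07), and 12 were higher and 1 lower at ZT12 (median 0.12). In GRflox alone 10 were higher at ZT12 and none lower (median 0.19), and in CardioGRKO 2 were higher and none lower (median 0.06). Of all genes, 8.13% were higher in GRflox and 4.42% in CardioGRKO, and the counts were not tested against each other. The mitophagy gene Bnip3 was lower in CardioGRKO (-0.56 ± 0.05, adjusted p = 5.08e-09), as were Sod2, superoxide dismutase of mitochondria (-0.24 ± 0.03, adjusted p = 2.20e-07), and the transcription factor gene Klf15 (-0.77 ± 0.09, adjusted p = 2.29e-07). Gadd45a, a stress-response gene, was higher (0.57 ± 0.07, adjusted p = 1.71e-06). The autophagy kinase gene Ulk1 was higher at ZT12 (0.37 ± 0.05, adjusted p = 2.49e-06). Sesn1 went in GRflox from 102 ± 11.8 CPM at ZT0 to 166 ± 14.4 at ZT12 (SD, n = 5) and in CardioGRKO from 99.9 ± 1.25 to 109 ± 5.69 CPM. It was the only gene of the 120 called for the difference of the time effects (-0.57 ± 0.09, adjusted p = 0.00531), beside the 26 called among all genes. These are genes that many factors regulate, and the list says nothing of which factor acted on them.

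**Figure D4:**
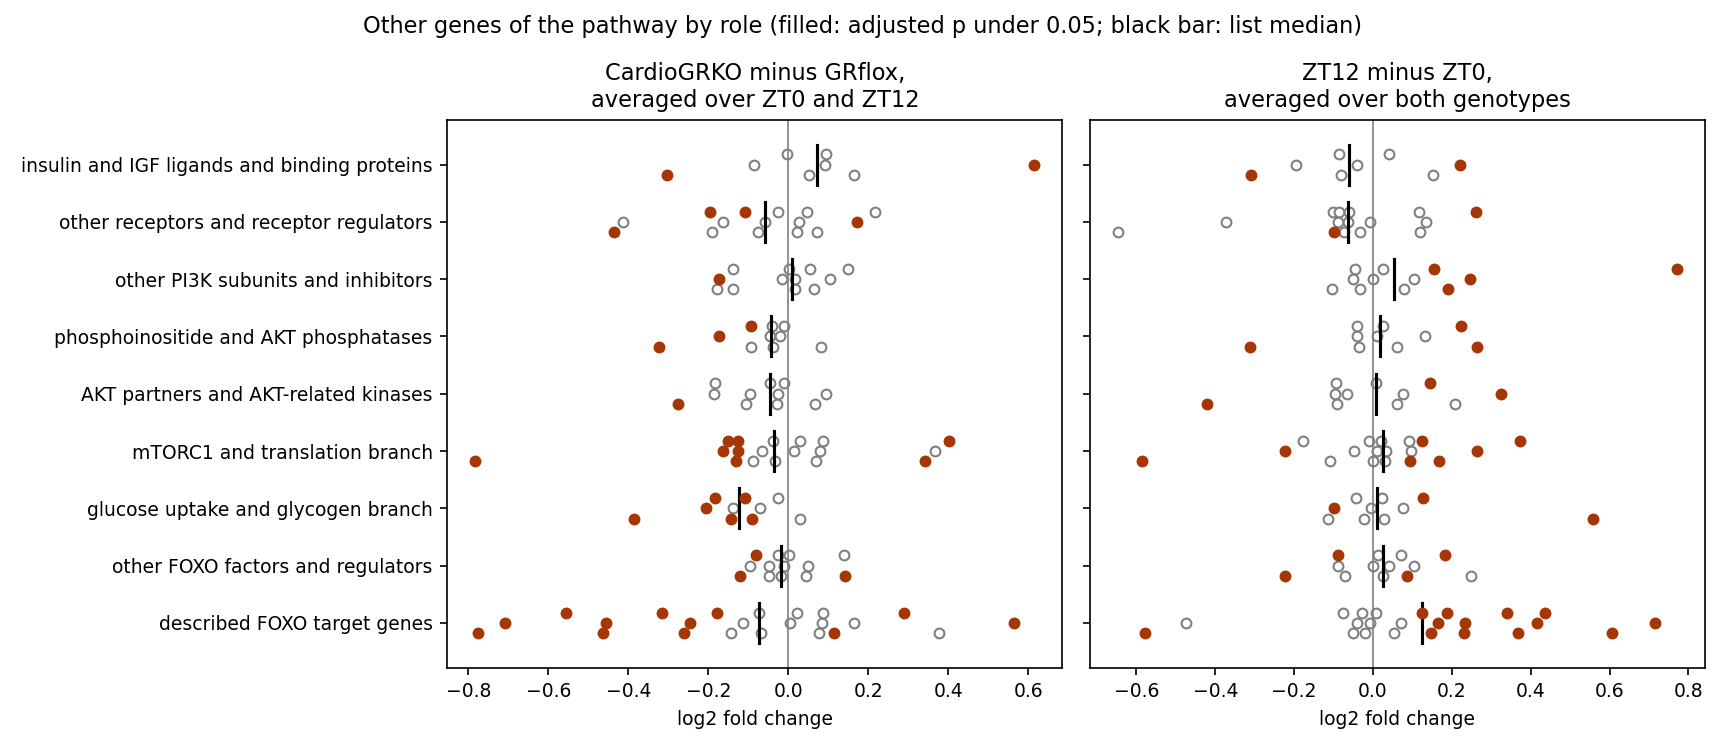
Log2 fold change (horizontal axes) of each tested gene of the 9 wider lists, for CardioGRKO minus GRflox averaged over both times (left) and ZT12 minus ZT0 averaged over both genotypes (right); filled points had an adjusted p under 0.05 (edgeR) and black bars are list medians. By genotype 6 of 10 glucose uptake and glycogen genes were called lower (15.9% of all genes), and by time 12 of 23 described FOXO targets were called higher (12.8% of all genes). The lists were chosen with earlier results of these data known, so nothing is read from these counts about a list as a group.

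Markers of cell types also moved with genotype and time, and their part in the results above was not tested. By genotype, 15.9% of all genes were lower and 15.5% higher, and by time 12.9% were lower and 12.8% higher. Of 8 cardiomyocyte markers, 6 were lower and 1 higher in CardioGRKO, and their summed level was 103337 to 111536 CPM in GRflox and 89647 to 103149 CPM in CardioGRKO. Of 8 endothelial markers, 6 were lower in CardioGRKO and 6 were lower at ZT12, with sums of 1387 to 1537 CPM in GRflox and 1213 to 1355 CPM in CardioGRKO at ZT0 and of 1141 to 1230 and 981 to 1138 CPM at ZT12. The pericyte and smooth muscle list had 6 of 8 lower and 1 higher by genotype, with sums of 1395 to 1649 CPM in GRflox and 1309 to 1798 CPM in CardioGRKO. The higher one was Acta2 (1.04 ± 0.10, adjusted p = 1.60e-08), which adds to these sums against the lower markers. None of 7 fibroblast markers was called by genotype at sums of 1027 to 1303 CPM, and 1 of 7 macrophage markers was, at sums of 164 to 241 CPM. Atrial markers varied from 1.96 to 149 CPM in sum, with no member of that list called. Lists other than the endothelial one also held genes called by time, in both directions, such as Cd163 (0.66) and Col3a1 (-0.38). The median of the cardiomyocyte list by genotype was -0.19, and its genes ran from -0.47 for Ryr2 to 0.11 for Actc1.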

How the data were processed

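Poly(A) RNA-seq of 20 libraries was read from the deposited tables, which hold whole-number counts per gene that the authors had not normalized. STAR 2.5.1, Subread 1.5.1 (featureCounts), DESeq2 1.38.3 and the build mm10 are listed per the submitters' processing notes; the sources used here do not give strand, annotation or the treatment of reads that match several genes. The 24918 lines were added up per Entrez identifier to 24059 genes. Groups came from the labels of each library.

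In R 4.3.3, edgeR 4.0.16 (quasi-likelihood F-test) was fitted to all 20 libraries with TMM factors (0.961 to 1.04) and filterByExpr (minimum count 10, minimum total 15), which left 14007 genes; the common biological coefficient of variation was 8.78%. P-values were adjusted by Benjamini-Hochberg over all genes within each comparison, with a threshold of 0.05. The 4 single differences, their 2 averages and the difference of the time effects were fitted. Standard errors are the log2 change over the square root of F. CPM are TMM-scaled; log2 CPM used a prior count of 2. Exon lengths are the union of GENCODE M21 exons, and coordinates and promoters are from RefSeq GRCm38.p6, whose gene table matched 99.6% of identifiers. The code was tested on simulated data. Python 3.11.15 with matplotlib 3.10.9 drew the figures.

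The genes and lists were chosen with earlier results of these data known. The text names the 10 genes, up to 4 genes per wider list with the smallest p in each averaged comparison, and the 6 genes most like Pik3r1 and Foxo3 with a mean log2 CPM of at least 1 (predicted genes left out), and Nr3c1 as a check of the labels. Sesn1 for the difference of time effects and Irs2 for its spread were singled out after their values were seen. Alternatives were DESeq2 1.42.0, RLE and upper-quartile factors, no filter, a replicate block, fits of only the groups compared, libraries thinned to 5854462 counts and each library left out in turn.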

Additional observations from a re-analysis of the deposited data

Results flagged for a closer look

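Within groups of 5, the highest or lowest library was compared with its neighbours for each of the 10 genes in each of the 4 groups (40 groups), where chance alone marks about 1 group in 20. A library stood out in 3 of them, when the gap to the nearest value exceeded 0.71 of the group's range. Igf1r in replicate 5 of CardioGRKO at ZT0 was the highest at 41.9 CPM, beside 37.7 to 38.1 CPM in the other 4. Igf1r in replicate 1 of GRflox at ZT12 was the lowest at 38.1 CPM, beside 43.0 to 43.6 CPM. Irs2 in replicate 5 of GRflox at ZT12 was the highest at 54.6 CPM, beside 11.1 to 19.1 CPM.

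The time difference of Sesn1 differed between genotypes by -0.57 on the log2 scale (edgeR interaction, adjusted p = 0.00531, and 0.000442 to 0.0139 over the omissions of 1 library). The same quantity was -0.94 for Pik3r1 and -0.69 for Foxo3, which were chosen by it, so these values are a description with no test.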

How the results depend on the processing

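Leaving out 1 library at a time, the genes called ran from 1636 to 2136 for genotype at ZT0, 2498 to 3041 at ZT12, 1931 to 2504 for time in GRflox, 874 to 1371 for time in CardioGRKO, 4087 to 4425 for averaged genotype, 3188 to 3662 for averaged time and 16 to 33 for the difference of the time effects. The lowest of these for time in CardioGRKO, 874 against 1284, came without replicate 3 of CardioGRKO at ZT0, and the 16 against 26 came without replicate 1 of CardioGRKO at ZT12. Omitting replicate 2 or 4 of GRflox at ZT0, or replicate 4 of GRflox at ZT12, gave 17 there. Among the 10 genes, those called lower ran from 1 to 2 for genotype at ZT0, 1 to 2 for time in CardioGRKO, 4 to 5 for averaged genotype and 1 to 2 for averaged time; those called higher ran from 0 to 1 for time in GRflox and 2 to 3 for averaged time. With all libraries thinned to the shallowest depth, 1329 genes were called for genotype at ZT0 (2060 before), 1844 at ZT12 (2952), 1458 for time in GRflox (2423), 794 in CardioGRKO (1284) and 2344 for averaged time (3594), with fewer counts by construction. In the thinned fit and in DESeq2, 2 of the 8 genes tested were lower between times in CardioGRKO, Irs1 and Akt2. DESeq2 called 69 genes for the difference of the time effects.

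Some signs turned; of the results concerned, Pik3cb alone had been called, and Irs2 had stood farther from 0, at -0.43 by genotype at ZT12 and 0.47 by time in GRflox. Upper-quartile factors gave Insr 0.0034 for genotype at ZT0 and Foxo1 0.0011 for averaged time. Thinning gave 0.011 for Insr and 0.048 for Pik3ca (genotype at ZT0), 0.019 for Igf1r (ZT12), 0.013 for Akt1 (time in CardioGRKO), 0.048 for Igf1r and 0.022 for Pik3cb, called at -0.17 before (averaged genotype), and -0.0076 for Pik3ca (averaged time). DESeq2 gave Irs2 0.0047 for averaged time. Leave-one-out ranges that crossed 0 were, for genotype at ZT0, -0.021 to 0.031 for Igf1r, -0.025 to 0.018 for Insr and -0.13 to 0.0075 for Irs1; at ZT12, -0.61 to 0.077 for Irs2; for time in GRflox, -0.010 to 0.031 for Insr, -0.045 to 0.0011 for Foxo1 and -0.033 to 0.65 for Irs2; for time in CardioGRKO, -0.043 to 0.038 for Foxo1. For averaged genotype they were -0.021 to 0.076 for Irs1, -0.040 to 0.0032 for Igf1r and -0.14 to 0.34 for Irs2, and for averaged time -0.034 to 0.0064 for Foxo1 and -0.30 to 0.18 for Irs2. The averaged calls of Pik3r1, Foxo3, Akt1 and Akt2 by genotype and of Pik3r1, Foxo3 and Irs1 by time held under all 26 alternatives. Foxo1 by genotype was lost with upper-quartile factors (adjusted p = 0.0761), without the filter (0.0549) and thinned (0.355). Igf1r by time was lost with RLE factors (0.0517), without the filter (0.0794) and thinned (0.184). Of 20 omissions of 1 library, 13 lost Foxo1 by genotype, 15 Igf1r by time and 9 Akt2 by time. The cause was not tested.

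Correlations gave no clear sign that replicate numbers pair the samples, but they cannot exclude that same-numbered libraries had something in common. Same-numbered libraries of different groups had correlations of -0.27 to 0.23 over 30 pairs, 8 of them over 0.1, and 7 correlated best with their own number. With the replicate block, 2194, 3111, 2513, 1359, 4494 and 3720 genes were called in the first 6 comparisons, in the order above, and 38 for the difference of the time effects. Each of these counts was higher than without the block. Of the 10 genes, the block changed the call of Igf1r by time (adjusted p = 0.0511).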

Other observations

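The spread of Irs2 between libraries of the same group was followed to other genes, a choice made after its values were seen. After removal of each group's mean, the log2 CPM of Irs2 correlated most with Pnpla7 (r = 0.84), a lysophospholipase gene, Bhlhe40 (0.83), a clock-linked repressor gene, Tapt1 (0.81), Tmem82 (0.80), Slc25a34 (0.78), a mitochondrial carrier gene, and Myoz2 (0.78), a sarcomere gene. The lowest correlations were with Cep41 (-0.82), Shisa3 (-0.79), Pnrc2 (-0.79), Zfp324 (-0.78), Mphosph6 (-0.76) and Hk1 (-0.75), the gene of hexokinase 1. These are the extremes of 11357 genes over the same 20 libraries, which differ in depth, so they describe these libraries only.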
